A study of Mus musculus with 42 samples.

Results

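The genes described here are the mouse histone genes whose names begin with Hist1h, Hist2h, Hist3h or Hist4h, taken by that name pattern from both deposited polyA RNA-seq tables. The tables hold 17552 distinct gene names, and 28 of them match. All 28 are in the table of embryoid body (EB) formation, which has 16753 genes, and 9 are also in the table of epiblast-like cell (EpiLC) differentiation, which has 16345 named genes. RefSeq (GRCm38.p6) lists 70 loci of these 4 clusters. The EB table holds 3 of 6 linker histone H1 loci, 15 of 20 H2A loci, 5 of 19 H2B loci, 2 of 12 H3 loci and 3 of 13 H4 loci. The EpiLC table holds 1 H1, 2 H2A, 3 H2B, 1 H3 and 2 H4 genes. Genes of the Hist1 cluster lie on chromosome 13, those of Hist2 on chromosome 3, those of Hist3 on chromosome 11 and Hist4h4 on chromosome 6. RefSeq calls Hist1h2aj a pseudogene and Hist3h2bb-ps a transcribed pseudogene.

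Replication histones package newly made DNA, and their transcripts are made mainly in S phase. Their messenger RNAs normally end in a conserved stem-loop in place of a polyA tail. The stem-loop binding protein SLBP and the U7 small nuclear ribonucleoprotein direct the cleavage that makes this end. Some members can also use polyadenylation sites downstream, which is known above all for cells that leave the cycle, whereas replication-independent variants such as H3.3 come from ordinary polyadenylated transcripts. The libraries were made from polyA-selected RNA, so a value here counts reads that passed that selection. Where a transcript ended was not measured, and neither table held a name that matched a list of abundant RNAs without polyA tails, so carry-over of such RNA could not be measured that way.

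All libraries came from mouse embryonic stem cells (ESCs). In the line KH2-ISY1 the splicing factor ISY1, tagged with Flag, is expressed when doxycycline (Dox) is added, and all KH2-ISY1 samples carry the transgene whether or not Dox was given. The EpiLC table has 10 KH2-ISY1 libraries without Dox, from 2i/LIF medium (0 h) and after 6, 12, 18, 24, 30, 36, 48, 72 and 96 h in EpiLC medium, and 4 with Dox at 24, 48, 72 and 96 h. It has 6 libraries of a DGCR8 knockout ESC line at 0, 6, 24, 48, 72 and 96 h, in which the partner of the nuclease that starts microRNA maturation is deleted. It also has 4 KH2-ISY1 libraries returned to 2i/LIF (called cESC in the labels), 1 each from EpiLCs of 24 and 48 h without Dox and of 24 and 48 h with Dox. The EB table has 7 KH2-ISY1 libraries without Dox, from serum/LIF medium (day 0) and after 1, 2, 4, 8, 10 and 13 days of EB formation, and 1 serum/LIF library with Dox. Each condition and time is 1 library, so single values carry no replicate error, and each test below rests on scatter around a smooth course or on the spread of differences over hours. The knockout is a line of its own, and its deletion cannot be told apart from other differences between the lines. Likewise, effects of Dox itself and of induced ISY1 cannot be told apart.

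Total reads per library ranged from 5.80 to 56.0 M, and 1 read was worth 0.0952 to 0.935 normalised reads. Days 0 to 2 of the EB course were sequenced more deeply (23.7 to 56.0 M reads) than days 4 to 13 (8.82 to 9.51 M), so depth cannot be told apart from time there. Isy1 stood at 708 to 3038 normalised reads in the EpiLC libraries with Dox and at 397 to 558 without Dox at the same hours, whereas the cESC libraries overlapped (235 and 331 with Dox, 221 and 325 without). Dgcr8 stood at 36.8 to 44.5 in the knockout and at 75.2 to 231 at the same hours without Dox. The naive pluripotency markers fell in the EpiLC course (10 of 10) and in the EB course (9 of 10), and 7 of 8 formative epiblast markers rose in the EpiLC course.

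Promoter windows of 300 bases, from 250 before to 50 after the annotated start, were found in RefSeq (GRCm38.p6) for 24 of the 28 genes. The windows of Hist3h2a and Hist3h2ba are shown because these genes reached their highest values together late in EB formation. Those of Hist2h3c1 and Hist2h3c2 are shown because both genes were high in the same library, and that of Hist1h1c because it was the highest member of the EB table. Hist3h2a lies at chr11:58954435-58954734 (plus strand), Hist3h2ba at chr11:58948661-58948960 (plus), Hist2h3c1 at chr3:96246435-96246734 (plus), Hist2h3c2 at chr3:96239078-96239377 (minus) and Hist1h1c at chr13:23738557-23738856 (plus). Capitals mark matches to 4 motifs. The TATA box was searched as TATAAA with TTTATA for the other strand. The CCAAT box was searched as CCAAT with ATTGG for the other strand. The octamer was searched as ATTTGCAT with ATGCAAAT for the other strand, and the H1 box as AAACACA with TGTGTTT for the other strand. None of these motifs contains another.
Hist3h2a: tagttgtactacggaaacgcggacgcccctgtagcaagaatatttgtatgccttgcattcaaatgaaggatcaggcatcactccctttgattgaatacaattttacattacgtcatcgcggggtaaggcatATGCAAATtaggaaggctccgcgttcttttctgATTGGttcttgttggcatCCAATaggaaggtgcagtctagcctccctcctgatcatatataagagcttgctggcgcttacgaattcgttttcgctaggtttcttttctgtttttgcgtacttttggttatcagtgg
Hist3h2ba: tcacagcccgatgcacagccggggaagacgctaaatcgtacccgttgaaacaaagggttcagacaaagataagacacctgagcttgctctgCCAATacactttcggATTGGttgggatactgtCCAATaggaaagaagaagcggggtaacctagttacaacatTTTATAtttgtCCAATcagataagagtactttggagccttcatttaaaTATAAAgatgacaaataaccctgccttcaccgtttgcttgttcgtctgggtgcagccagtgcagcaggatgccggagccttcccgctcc
Hist2h3c1: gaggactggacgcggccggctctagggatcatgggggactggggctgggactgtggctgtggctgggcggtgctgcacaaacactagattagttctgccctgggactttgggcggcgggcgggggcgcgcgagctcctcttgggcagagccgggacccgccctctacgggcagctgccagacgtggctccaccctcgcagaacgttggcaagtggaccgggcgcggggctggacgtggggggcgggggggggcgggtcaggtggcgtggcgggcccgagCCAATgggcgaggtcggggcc
Hist2h3c2: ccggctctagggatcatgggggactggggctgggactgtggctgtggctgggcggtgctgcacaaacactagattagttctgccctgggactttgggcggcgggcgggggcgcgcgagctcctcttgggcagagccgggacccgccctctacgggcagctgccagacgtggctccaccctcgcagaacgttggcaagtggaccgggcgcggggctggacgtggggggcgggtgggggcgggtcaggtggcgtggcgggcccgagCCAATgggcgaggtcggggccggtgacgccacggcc
Hist1h1c: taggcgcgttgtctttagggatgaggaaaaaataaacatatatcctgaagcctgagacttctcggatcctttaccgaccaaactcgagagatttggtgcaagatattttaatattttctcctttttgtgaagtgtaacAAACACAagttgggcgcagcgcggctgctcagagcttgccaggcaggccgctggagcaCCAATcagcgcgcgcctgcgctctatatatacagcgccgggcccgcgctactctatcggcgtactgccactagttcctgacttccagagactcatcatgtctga

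CCAAT was found in 22 of the 24 windows, and in 37.4% of the 32851 RefSeq windows of the same length. TATAAA was found in 13 of 24 (13.6% of all windows), the octamer in 6 of 24 (1.74%) and the H1 box in 3 of 24 (7.18%). The octamer is known from H2B promoters, and H2A and H2B genes often lie head to head. In these windows it stood in the H2B gene Hist1h2bg and in the H2A genes Hist3h2a, Hist1h2ab, Hist1h2ac, Hist1h2ae and Hist1h2ah. The windows of Hist1h2ae (chr13:23571171-23571470, minus) and Hist1h2bg (chr13:23571150-23571449, plus) overlap on opposite strands. Their octamer, TATAAA and CCAAT matches are therefore the same sites, counted for each gene. The H1 box stood in the linker histone genes Hist1h1b and Hist1h1c and in Hist1h2ab. The windows of Hist2h3c1 and Hist2h3c2 were identical at 284 of 315 alignment positions (90.2%), and those of Hist3h2a and Hist3h2ba at 177 of 344 (51.5%). Both alignment lengths include gaps. For the Hist2 pair nearly all unmatched positions were window ends, since the windows are offset, so the share understates their likeness where they overlap. These matches describe letters in a window and were not tied to binding.

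Levels between genes were compared as normalised reads per kilobase of annotated span, which was possible for the 26 members with spans of 360 to 794 bases. In the EB table Hist1h1c, a linker histone, had the highest mean over the 8 libraries (117 per kilobase), followed by Hist3h2a (92.8), Hist3h2ba (87.9), Hist1h4i (71.0) and Hist4h4 (50.4). Hist3h2a and Hist3h2ba do not differ in that order beyond their spread, since each ranged over the libraries by far more than the gap between them (37.5 to 311 and 14.4 to 364 per kilobase). Day 13 carried both of these means: without that library they were 61.7 and 48.5 per kilobase, beside 104 for Hist1h1c, 75.9 for Hist1h4i and 47.7 for Hist4h4. By the median over the 8 libraries the order was Hist1h1c (101), Hist1h4i (73.8), Hist3h2a (59.2), Hist4h4 (51.8) and Hist3h2ba (44.0). The next members had means of 17.4 per kilobase or less, and Hist2h3c2 had the lowest (3.46). In the EpiLC table the order was Hist4h4 (37.5 per kilobase), Hist1h4i (34.2), Hist1h1c (26.7), Hist3h2a (22.5), Hist1h2af (8.61), Hist3h2ba (8.59) and Hist2h3c1 (4.81), and the ranges of each pair of neighbours over the 24 libraries overlapped. Hist1h2bc and Hist2h2be, which encode H2B, have annotated spans of 8282 and 2667 bases, and no level per kilobase is given for them. The tables were scaled separately, so levels were not compared across them.

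Tests were run on log2(normalised reads + 1) with limma over all genes whose mean was at least 1, and a gene was called at a Benjamini-Hochberg adjusted p under 0.05. A change over a course is the fitted value at its last time minus that at its first, on that log2 scale. The change understates the fold change of low genes. For a course, p came from an F test of the whole spline. Higher or lower is the sign of the change, which had no test of its own.

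The EB course asks how the transcriptome changes as ESCs leave pluripotency in aggregates. Among the histone genes, Hist3h2a and Hist3h2bb-ps of the Hist3 cluster rose, while the H3 pair of the Hist2 cluster and the Hist1 genes Hist1h2ao and Hist1h2aj fell. Of 28 members, 6 were called, 2 higher and 4 lower. Among these, Hist2h3c2 passed the filter on the mean only through day 0, where it was highest. Over all 16753 genes 26.9% were called, 17.3% higher and 9.61% lower. The share of members called was therefore no larger than the background, with fewer higher and slightly more lower than it. At an unadjusted p under 0.05 there were 18 of 28 members against 42% of all genes. The median change of the 28 members was -2.10, beside 0.12 for all genes, and 21 of the 28 changes were negative. Rescaling the libraries by median ratios moved the median of all genes from 0.12 to -0.01, so each change is to be read against that shift, and no member named here changed sign under it.

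**Figure D1:**
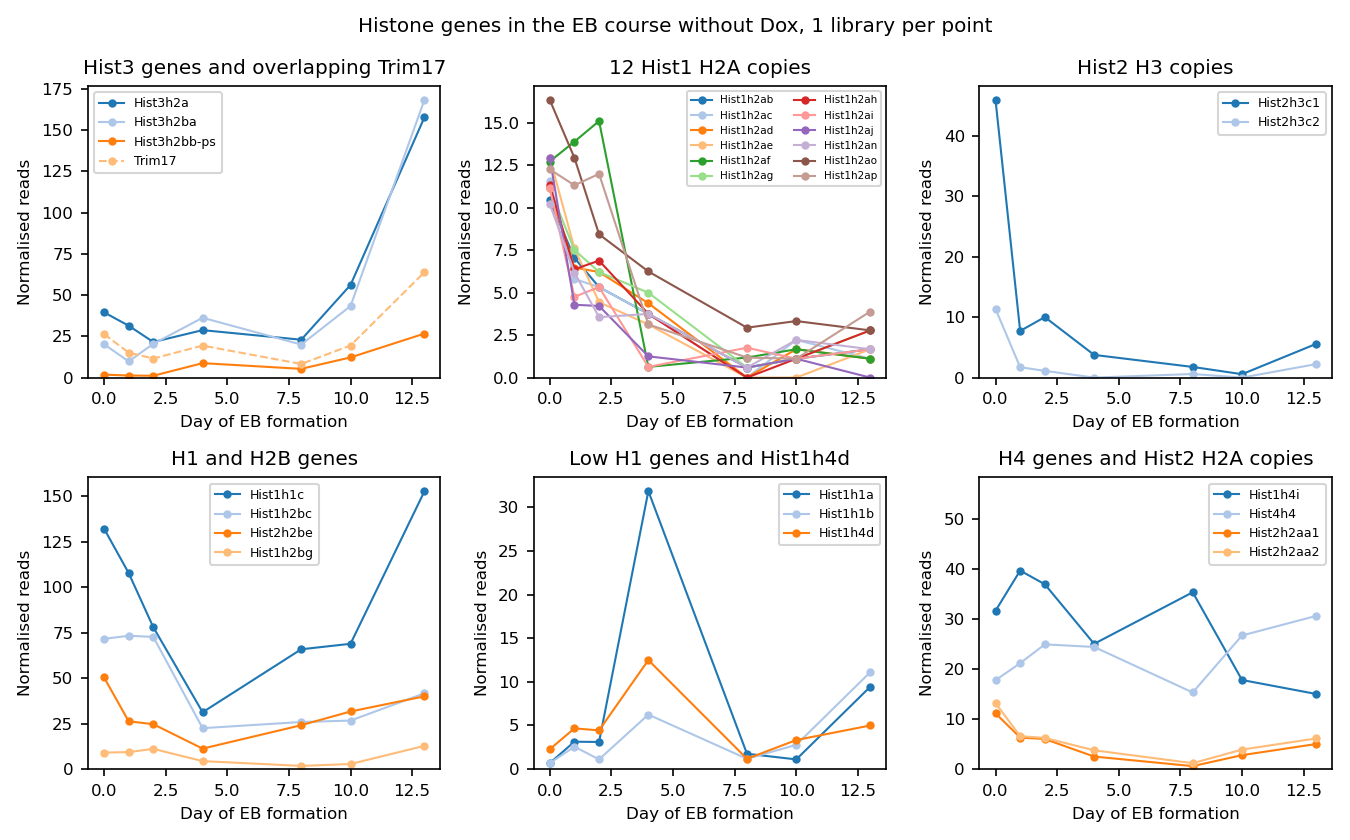
Normalised reads (y axis) of all 28 histone genes, and of Trim17 which overlaps Hist3h2a, by day of EB formation without Dox (x axis), 1 library per point and no replicates. The Hist3 genes peak at day 13, whereas the Hist1 H2A copies and the Hist2 H3 copies are highest in the first days.

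The Hist3 cluster holds Hist3h2ba (an H2B gene), Hist3h2bb-ps, the unrelated gene Trim17 and Hist3h2a (an H2A gene) in that order. Hist3h2a stood at 39.6, 31.4, 21.6, 28.8, 22.9, 56.1 and 158 normalised reads on days 0, 1, 2, 4, 8, 10 and 13. Hist3h2ba stood at 20.2, 9.81, 20.4, 36.3, 20, 43.3 and 168 on the same days. Hist3h2bb-ps stood at 1.82, 1.24, 1.11, 8.75, 5.29, 12.2 and 26.7. All 3 genes were highest on day 13 and second highest on day 10, and the day 13 library held 284, 303 and 48 reads of them.

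Hist3h2bb-ps rose by 3.29 ± 0.83 (SE, adjusted p = 0.0358). Hist3h2a rose by 1.23 ± 0.58 (adjusted p = 0.0445), with a 95% interval of the end-to-start difference of -0.13 to 2.58, because the spline test covers the whole shape of the course and its fitted low point was on day 2. Hist3h2ba changed by 2.38 ± 0.79 but missed the threshold with limma (adjusted p = 0.0599). It passed with edgeR on recovered reads (adjusted p = 0.0335), without day 0 (0.0460), without day 4 (0.0262) and without day 8 (0.0438).

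Day 13 carried much of this pattern. Without that library the change of Hist3h2a was 0.01 (adjusted p = 0.482), and that of Hist3h2bb-ps was 2.32 (adjusted p = 0.201). Leaving out day 2 or day 10 also ended the call of Hist3h2a (adjusted p = 0.0917 and 0.119), and leaving out day 1, 2 or 10 that of Hist3h2bb-ps (0.0800, 0.0835 and 0.106). The call of Hist3h2a was also lost with median-ratio scaling (0.0508), without the intensity trend (0.0577) and with a straight line in place of the spline (0.252). Trim17, whose annotated span overlaps that of Hist3h2a, stood at 26.4, 15.1, 11.6, 19.4, 8.24, 19.4 and 63.9 over the same days. Whether counting used the strand is not stated, so reads of the overlap could belong to either gene. The summed level of the 6 measured fibroblast markers was 12581 normalised reads on day 13 and 21.5 to 329 on the other days without Dox. None of the 6 was at 0 on days 10 and 13, and 1 or 2 were at 0 on each earlier day. Their part in the Hist3 values was not tested, and in bulk libraries a changed share of a cell type and a changed level per cell cannot be told apart.

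The H3 genes of the Hist2 cluster, Hist2h3c1 and Hist2h3c2, encode the core histone H3 and are near copies of each other. Hist2h3c1 stood at 45.9, 7.71, 10.0, 3.75, 1.76, 0.56 and 5.56 normalised reads on days 0, 1, 2, 4, 8, 10 and 13. Hist2h3c2 stood at 11.4, 1.71, 1.11, 0, 0.59, 0 and 2.22 on the same days. Both were highest in the serum/LIF library of day 0, and Hist2h3c1 held 202 reads there against 1 to 10 reads on days 4 to 13. A value of 0 allows up to 1.88 normalised reads on day 4 and 1.67 on day 10 (3 reads).

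Hist2h3c1 had a change of -3.78 ± 0.86 (adjusted p = 0.0295) and Hist2h3c2 one of -2.45 ± 0.82 (adjusted p = 0.0456). Much of the decrease of Hist2h3c1 lay between day 0 and day 1. Without day 0 its change was -1.62 (adjusted p = 0.213), and the call was also lost without day 8 or day 10 (adjusted p = 0.0618 and 0.0603). Hist2h3c2 lost its call in each of the 6 leave-outs that kept it above the mean of 1 (adjusted p = 0.0550 to 0.0984). Without day 0 it fell below that mean and was not tested, so it entered the test only through the library where it was highest. A straight line in place of the spline gave it an adjusted p of 0.221. Reads could be shared or split between the copies, so their separate values are uncertain.

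The EB table holds 12 H2A genes of the Hist1 cluster, whose coding sequences are close copies. Over these 12 the lowest, median and highest values were 10.2, 11.5 and 16.4 normalised reads on day 0 and 4.29, 6.77 and 13.9 on day 1. They were 3.56, 5.78 and 15.1 on day 2 and 0.63, 3.75 and 6.25 on day 4. The ranges of day 0 and of day 4 did not overlap. On day 8 they were 0, 0.59 and 2.94, with 4 genes at 0, on day 10 they were 0, 1.11 and 3.33, and on day 13 they were 0, 1.67 and 3.89. From day 8 on, every copy held 7 reads or fewer per library. All 12 had a negative fitted change, and 2 passed the test. Hist1h2ao fell by 2.46 ± 0.56 on the log2 scale (adjusted p = 0.0348), from 16.4 to 2.78 normalised reads.

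Hist1h2aj, the annotated pseudogene, fell by 3.52 ± 0.73 (adjusted p = 0.0252), from 57 reads on day 0 to no read on day 13. Each of these calls was lost in 5 of the 7 leave-outs, those of day 0, 1, 2, 10 and 13 (adjusted p = 0.0801 to 0.106 for Hist1h2ao and 0.0555 to 0.152 for Hist1h2aj). The other 10 copies had changes of -3.63 to -2.34 with adjusted p of 0.0538 to 0.129, and some of them passed under an alternative, such as Hist1h2ae with a pseudocount of 4 (0.0332) or median-ratio scaling (0.0475). Hist1h2af kept 12.7, 13.9 and 15.1 normalised reads on days 0, 1 and 2 and stood at 0.63 on day 4, whereas the median copy was already lower on day 1. Since reads of near-identical copies can be split or shared, the 12 genes are not 12 independent measurements. The H2A genes of the Hist2 cluster, Hist2h2aa1 and Hist2h2aa2, changed by -1.86 ± 0.83 and -1.61 ± 0.74 (adjusted p = 0.187 and 0.180).

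The linker histone gene Hist1h1c stood at 132, 108, 78.0, 31.3, 65.9, 68.9 and 153 normalised reads on days 0, 1, 2, 4, 8, 10 and 13. Hist1h2bc, an H2B gene, stood at 71.6, 73.3, 72.7, 22.5, 25.9, 26.7 and 41.7. Hist2h2be, another H2B gene, stood at 50.5, 26.3, 24.7, 11.3, 24.1, 31.7 and 40.0. All 3 were lowest on day 4, and the ends of the course lay close together for Hist1h1c and Hist2h2be. Their fitted changes were -0.47 ± 0.54, -1.53 ± 0.61 and -0.39 ± 0.46, and none passed the test (adjusted p = 0.110, 0.182 and 0.0692). These values depended on day 0: without it Hist1h1c changed by 0.47 and was called (adjusted p = 0.0182), Hist1h2bc changed by -1.10 and was called (0.0368), and the value of Hist2h2be was 0.73 (0.117). The smaller H2B gene Hist1h2bg ranged from 1.76 to 12.8 with a median of 9.09 (change -1.03 ± 0.96, adjusted p = 0.589).

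Hist1h1a and Hist1h4d were highest on day 4, and Hist1h1b second highest, an observation made after the values were seen. Hist1h1a, a linker histone gene, stood at 31.9 normalised reads (51 reads) on day 4 and at 0.68 to 9.44 on the other days. Hist1h4d, an H4 gene, stood at 12.5 on day 4 and at 1.18 to 5.0 on the others. Hist1h1b stood at 6.25 on day 4 and at 11.1 on day 13, with 0.68 to 2.78 on the remaining days. No smooth trend was called for these 3 genes (changes of 1.32 ± 1.42, 0.16 ± 0.95 and 1.78 ± 1.03, adjusted p = 0.487, 0.689 and 0.393). Without day 0 the changes of Hist1h1a and Hist1h4d had the opposite sign (-0.23 and -0.63). With 1 library on day 4, its values have no replicate.

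The H4 genes Hist1h4i and Hist4h4 had no called change. Hist1h4i ranged from 15.0 to 39.6 normalised reads with a median of 31.6 and was lowest on day 13 (change -0.98 ± 0.47, adjusted p = 0.168). Hist4h4 ranged from 15.3 to 30.6 with a median of 24.4 and was highest on day 13 (change 0.42 ± 0.49, adjusted p = 0.764, 95% interval -0.71 to 1.56).

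Genes that act on histones moved as follows in the EB course. None of 12 genes of histone 3′ end processing and none of 6 of histone mRNA decay were called, where 17.3% of all genes rose and 9.61% fell. Of 21 DNA replication genes 10 fell and none rose (median change -0.89), among them Pola1, a subunit of the polymerase that starts DNA strands (-1.87 ± 0.22, adjusted p = 0.00233), and Cdt1, which loads the replicative helicase (-1.86 ± 0.24, adjusted p = 0.00342). Of 9 genes of histone gene transcription 2 fell, Ccne1, the gene of cyclin E1 (-2.09 ± 0.34, adjusted p = 0.00705), and Npat, the coactivator of histone genes (-0.94 ± 0.25, adjusted p = 0.0479, lost in 6 of 7 leave-outs). Of 9 histone chaperones 1 rose and 3 fell, including Hat1, a histone acetyltransferase (-1.67 ± 0.38, adjusted p = 0.0278). Of 11 replication-independent histones 2 rose and 2 fell, with H2afy2, a macroH2A gene, rising by 2.84 ± 0.31 (adjusted p = 0.00262) and H2afx at -2.20 ± 0.23 (adjusted p = 0.00236). Of 10 cell cycle inhibitors and pocket proteins 2 rose, Cdkn1c (3.04 ± 0.48, adjusted p = 0.00421) and Cdkn1b (0.97 ± 0.25, adjusted p = 0.0393). The call of Cdkn1b was lost in 4 of 7 leave-outs, that of Hat1 in 3 of 7 and that of Ccne1 in 1 of 7. The 3 general pluripotency markers all fell, 4 of 8 formative markers rose and 2 fell, and 2 of 6 fibroblast markers rose.

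The serum/LIF libraries with and without Dox show what accompanied added Dox, and with it induced ISY1, in undifferentiated cells. There was 1 library each and therefore no test. Of 27 members with a pair mean of at least 1, 6 were at least 2-fold lower with Dox on the log2(value + 1) scale and 1 was at least 2-fold higher. Over 16036 genes 8.2% were that much lower and 1.18% that much higher. The 6 lower members were Hist2h3c2, Hist2h3c1, Hist2h2be, Hist1h1c, Hist3h2ba and Hist3h2a, and the higher member was Hist1h1a. Hist1h1a stood at 0.68 without Dox and 2.38 with Dox, so it passed the pair mean only through the library where it was higher. The median difference of the members was -0.24, beside -0.04 for all genes.

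Hist2h3c1 stood at 45.9 normalised reads without Dox (exact 95% Poisson interval 39.8 to 52.7, counting error alone) and at 6.67 with Dox (4.43 to 9.64). Hist2h3c2 stood at 11.4 (8.43 to 15.0) and 0.95 (0.26 to 2.44). Hist2h2be stood at 50.5 (44.0 to 57.5) and 10.0 (7.21 to 13.5). The intervals of the paired values did not overlap for these genes.

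Hist1h1c stood at 132 without Dox and 44.5 with Dox, Hist3h2ba at 20.2 and 6.67, and Hist3h2a at 39.6 and 19.1. Hist1h2bc differed less, at 71.6 and 45.7. The 12 Hist1 H2A copies had medians of 11.5 and 11.8 and ranges that overlapped (10.2 to 16.4 and 8.33 to 18.1). The day 0 library without Dox also stood above EB day 1 for several of these genes: Hist2h3c1 stood at 7.71, Hist2h3c2 at 1.71 and Hist2h2be at 26.3 on day 1. Of the 28 members 4 were at least 2-fold lower on day 1 than on day 0 (Hist2h3c1, Hist2h3c2, Hist1h2aj and Hist1h2ai) and 2 were higher (Hist1h1a and Hist1h1b), against 14.2% and 5.71% of 16114 genes. Hist1h1a and Hist1h1b both stood at 0.68 on day 0 and at 3.14 and 2.57 on day 1. They passed the pair mean of at least 1 only through day 1. The comparisons with Dox and with day 1 share the same day 0 library. The summed fibroblast markers were 180 normalised reads in that library, 61.4 with Dox and 21.5 on day 1, and their part in these values was not tested.

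**Figure D2:**
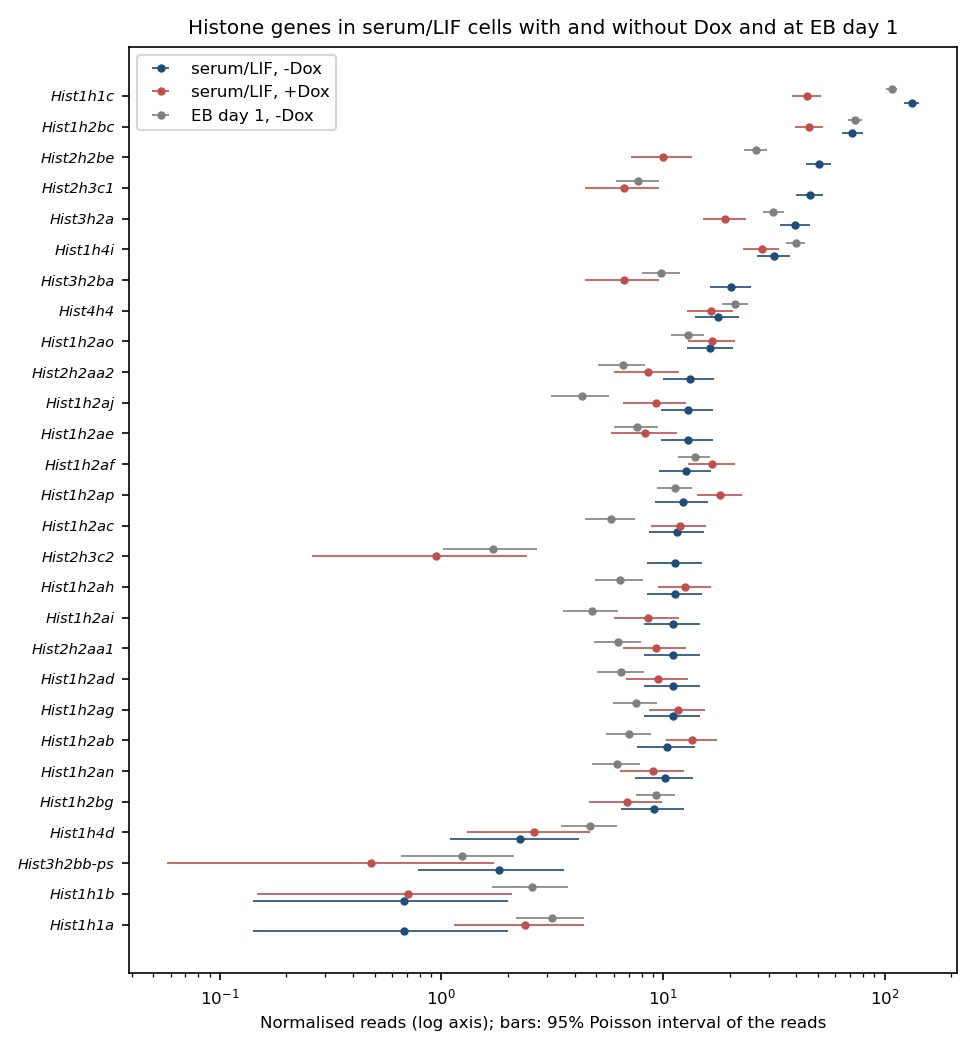
Normalised reads (x axis, log scale) of the 28 histone genes (y axis) in serum/LIF cells without Dox, with Dox and at EB day 1, 1 library each, with exact 95% Poisson intervals as bars. Hist2h3c1, Hist2h3c2, Hist2h2be, Hist1h1c and Hist3h2ba are among the genes that stand higher in serum/LIF without Dox than in both other libraries. The Hist1 H2A copies overlap between the serum/LIF libraries.

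The EpiLC course asks how gene expression moves from naive cells in 2i/LIF towards the primed state. The H2B gene Hist3h2ba and the H4 gene Hist1h4i ended higher than they began, and Hist1h2bc and Hist1h1c rose in the first hours and ended lower than their peaks. Of 9 members 4 were called, 2 higher and 2 lower. Over 16206 genes 50.1% were called, 25.4% higher and 24.8% lower, so the members' share was close to the background. At an unadjusted p under 0.05 there were 5 of 9 members against 58.6% of all genes. edgeR on recovered reads up to 72 h called 1 of 9, Hist3h2ba. The share of all genes called by that run is not given here, so this count has no background beside it. The median change of the members was -0.37, beside -0.02 for all genes.

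**Figure D3:**
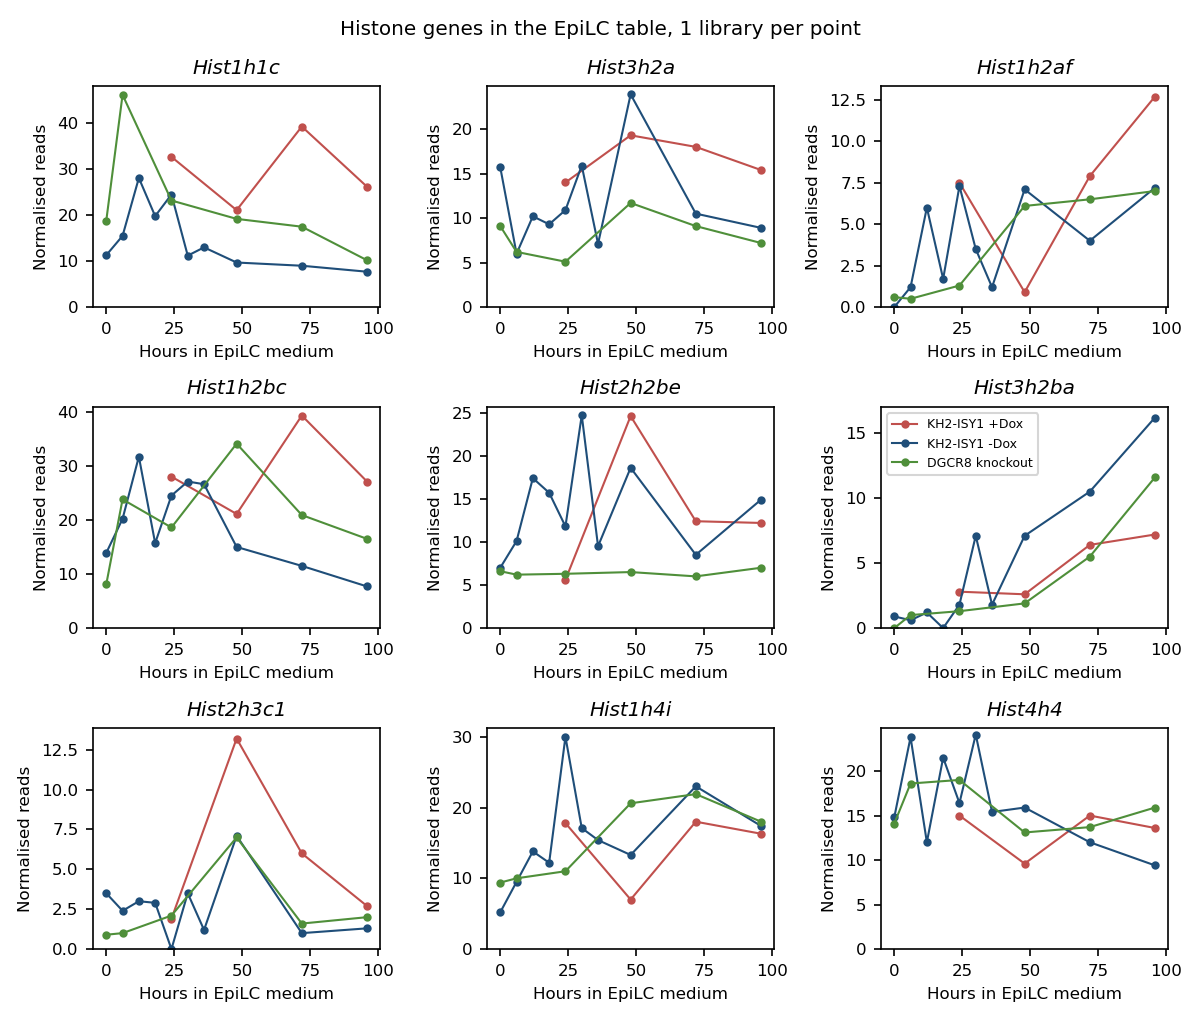
Normalised reads (y axis) of the 9 histone genes in the EpiLC table by hours in EpiLC medium (x axis), for KH2-ISY1 without Dox, with Dox and the DGCR8 knockout, 1 library per point. Hist3h2ba is highest at 96 h in all 3 series (16.2, 7.2 and 11.6), and Hist2h2be stays between 6.0 and 7.0 in the knockout.

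Hist3h2ba stood at 0.9, 0.6, 1.2, 0, 1.8, 7.1, 1.8, 7.1, 10.5 and 16.2 normalised reads at 0, 6, 12, 18, 24, 30, 36, 48, 72 and 96 h. The 5 earliest libraries held at most 2 reads each, the value of 0 allows up to 1.74 normalised reads, and the highest values were the latest. The change was 3.08 ± 0.91 (adjusted p = 0.00727), and it was called in each of the 10 leave-outs, with changes of 2.55 to 3.34. It was also called by edgeR on recovered reads up to 72 h (adjusted p = 0.0420). The summed level of the 3 fibroblast markers in this table was 147 and 154.5 normalised reads at 72 and 96 h and 20.8 to 66.9 before, and its part in the rise of Hist3h2ba was not tested.

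Hist1h4i stood at 5.2, 9.5, 13.8, 12.2, 30.0, 17.1, 15.4, 13.3, 23.0 and 17.4 over the same hours, lowest at 0 h and highest at 24 h. Its change was 1.74 ± 0.58 (adjusted p = 0.0498). The call was lost in 8 of 10 leave-outs, all but those of 24 and 48 h (adjusted p = 0.0562 to 0.343), with a pseudocount of 4 (0.0652) and without the filter on low values (0.0507). The value without 0 h was 1.05.

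Hist1h2bc stood at 13.9, 20.2, 31.7, 15.7, 24.5, 27.1, 26.6, 15.0, 11.5 and 7.7, with its highest values from 12 to 36 h apart from 18 h. Its spline was called (adjusted p = 0.0267), with a fitted maximum at 18 h that lay 0.75 above the higher end. The fitted end-to-start change was -0.84 ± 0.50. Hist1h1c stood at 11.3, 15.5, 28.1, 19.8, 24.5, 11.2, 13.0, 9.7, 9.0 and 7.7, with its 3 highest values from 12 to 24 h. Its spline was called (adjusted p = 0.0282), with a fitted maximum at 12 h that lay 1.03 above the higher end, and the end-to-start change was -0.37 ± 0.51. Leaving out 12, 30, 72 or 96 h ended the call of Hist1h2bc (adjusted p = 0.0572, 0.0559, 0.0550 and 0.167), and without 96 h its change was -0.33. Leaving out 12, 18, 72 or 96 h ended that of Hist1h1c (0.106, 0.0571, 0.0586 and 0.0847), as did a spline with 2 degrees of freedom (0.0631, change -0.94).

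The other 5 members were not called. Hist3h2a ranged from 6.0 to 23.9 normalised reads with a median of 10.4, and Hist4h4 from 9.4 to 24.1 with a median of 15.7. Hist2h2be ranged from 7.0 to 24.7 (median 13.4) and Hist2h3c1 from 0 to 7.1 (median 2.65). Their adjusted p were 0.358, 0.240, 0.363 and 0.799. Hist1h2af ranged from 0 to 7.3 with a median of 3.75, and its change of 3.06 ± 0.97 missed the threshold (adjusted p = 0.0735).

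In the same course 6 of 12 genes of histone 3′ end processing rose and none fell (median change 0.39), against 25.4% and 24.8% of all genes, the background for each count that follows. They included Zfp473, the U7-associated zinc finger protein (1.41 ± 0.31, adjusted p = 0.00520), and Cpsf2, a subunit of the cleavage complex (0.93 ± 0.23, adjusted p = 0.0148). Of 9 genes of histone gene transcription 2 rose and 2 fell, with Ccne1 at 1.75 ± 0.31 (adjusted p = 0.000456) and Cdk2, its kinase, at -1.20 ± 0.18 (adjusted p = 0.00125). Of 21 DNA replication genes 6 rose and 4 fell, of 9 chaperones 2 rose and 4 fell, and of 6 decay genes 2 rose and 1 fell. Of 11 replication-independent histones 5 rose and 2 fell, among them H1fx, a linker histone (1.52 ± 0.32, adjusted p = 0.00747), and H2afy, a macroH2A gene (-1.51 ± 0.27, adjusted p = 0.000158). Of 10 cell cycle inhibitors and pocket proteins 3 rose and 6 fell, with Cdkn1a at -2.02 ± 0.16 (adjusted p = 3.79e-05). The 3 general pluripotency markers fell, and both fibroblast markers tested rose.

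The DGCR8 knockout asks what the loss of microRNA maturation changes along the course. Hist1h1c stood higher and Hist2h2be lower in the knockout than in KH2-ISY1 cells without Dox, and these 2 of 9 members were called. Over 16267 genes 42.4% were called, and 3 of 9 members passed an unadjusted p under 0.05 against 51.3% of all genes, so the members' share was below the background. Of all calls 42.6% were higher in the knockout, and 53.4% were with median-ratio and 53.1% with TMM-like scaling. The median difference of the members was 0.00, beside -0.08 for all genes.

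Hist1h1c stood at 18.8, 46.2, 23.2, 19.2, 17.5 and 10.2 normalised reads in the knockout at 0, 6, 24, 48, 72 and 96 h. It stood at 11.3, 15.5, 24.5, 9.7, 9.0 and 7.7 without Dox, so the knockout was higher at 5 of 6 hours, though the ranges of the lines overlapped. The mean difference was 0.72 ± 0.23 (adjusted p = 0.0336). The call was lost without 0, 6, 48 or 72 h (adjusted p = 0.0641, 0.0900, 0.0812 and 0.0843) and without hour as a block (0.172).

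Hist2h2be stood at 6.6, 6.2, 6.3, 6.5, 6.0 and 7.0 in the knockout and at 7.0, 10.1, 11.8, 18.6, 8.5 and 14.9 without Dox. The knockout was lower at 6 of 6 hours, and the ranges touched only at 7.0. The mean difference was -0.72 ± 0.24 (adjusted p = 0.0349). The call was lost without 6, 24, 48, 72 or 96 h (adjusted p = 0.0591, 0.0763, 0.0990, 0.0610 and 0.0886). It was also lost with median-ratio scaling (-0.64, 0.0554), with TMM-like scaling (-0.64, 0.0551) and without the hour block (0.0574).

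The remaining 7 members had differences of -0.61 to 0.35 and were not called. Hist3h2a was lower at 5 of 6 hours, with 9.1, 6.2, 5.1, 11.7, 9.1 and 7.2 in the knockout (-0.51 ± 0.23, adjusted p = 0.0975). Hist3h2ba stood at 0, 1.0, 1.3, 1.9, 5.5 and 11.6 and also reached its highest value at 96 h (-0.61 ± 0.31, adjusted p = 0.138). Hist1h2bc stood at 8.1, 23.8, 18.6, 34.1, 20.9 and 16.5, below the cells without Dox at 0 and 24 h and above them at the other 4 hours. The slope of its difference was 0.17 ± 0.06 per square root of an hour (unadjusted p = 0.0216, adjusted p = 0.247). A change of the difference with hour was called by limma for 0 of 9 members and for 0.523% of 16267 genes. At an unadjusted p under 0.05 it was 1 of 9 members (14.7% of all genes). edgeR was not run on the knockout, since reads were recovered for 1 of its 6 libraries.

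Among the genes that act on histones, 3 of 12 in 3′ end processing were lower in the knockout and none were higher. Over all genes 24.3% were lower and 18.1% higher, so the lower share was close to the background. Slbp stood at 298, 271, 275, 282, 299 and 281 normalised reads in the knockout and at 415, 299, 443, 405, 549 and 440 without Dox at the same hours. It was lower at all 6 hours (-0.56 ± 0.11, adjusted p = 0.00317) and was called in each of the 6 leave-outs. Lsm10, a U7 subunit, was lower by 0.64 ± 0.13 in the fit (adjusted p = 0.00462).

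Of 9 genes of histone gene transcription 3 were higher and none lower, among them Ccne2, the gene of cyclin E2 (0.80 ± 0.15, adjusted p = 0.00320), and E2f1 (0.46 ± 0.13, adjusted p = 0.0173). Of 10 cell cycle inhibitors and pocket proteins 4 were higher and none lower, led by Rbl2, a pocket protein of the retinoblastoma family (2.00 ± 0.10, adjusted p = 2.69e-05). Of 21 DNA replication genes 3 were higher and 4 lower, of 9 chaperones 2 and 2, and of 6 decay genes 2 and 1. Of 11 replication-independent histones 2 were higher and 4 lower, with H2afx at -0.79 ± 0.08 (adjusted p = 0.000195). Of the marker lists, 6 of 10 naive and 2 of 3 general pluripotency markers were higher, 1 of 8 formative markers was higher and 4 lower, and both fibroblast markers were lower. The part of these marker differences in the histone values was not tested.

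KH2-ISY1 libraries with Dox were compared with those without it at 24, 48, 72 and 96 h of the EpiLC course. With limma 0 of 9 members were called, beside 2.83% of 16117 genes. At an unadjusted p under 0.05 there were 3 of 9 members against 22.8% of all genes. With edgeR on the recovered reads of 24 and 48 h, 0 of 9 members and 109 of 15980 genes were called. That run left out 72 and 96 h. The median difference of the members was 0.00, beside -0.01 for all genes. The libraries without Dox at these hours also served as controls for the knockout, so the comparisons are not independent.

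Hist1h1c stood at 32.7, 21.1, 39.3 and 26.2 normalised reads with Dox and at 24.5, 9.7, 9.0 and 7.7 without. It was higher at 4 of 4 hours, and the ranges overlapped through the 24 h library without Dox. The mean difference was 1.28 ± 0.30 (adjusted p = 0.0643, unadjusted p = 0.00308). It was called when the 24 h pair was left out (1.57, adjusted p = 0.0308).

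Hist1h2bc stood at 28.0, 21.1, 39.3 and 27.1 with Dox and at 24.5, 15.0, 11.5 and 7.7 without (1.01 ± 0.32, adjusted p = 0.121). Hist2h3c1 stood at 1.9, 13.2, 6.0 and 2.7 with Dox and at 0, 7.1, 1.0 and 1.3 without (1.21 ± 0.36, adjusted p = 0.107). Both were higher at 4 of 4 hours, with ranges that overlapped. For Hist2h3c1 the 0 at 24 h without Dox allows up to 2.73 normalised reads, which is above its 1.9 with Dox. The direction of that pair is therefore uncertain.

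Hist1h4i was lower at 4 of 4 hours, at 17.8, 7.0, 18.0 and 16.3 with Dox and 30.0, 13.3, 23.0 and 17.4 without (-0.50 ± 0.23, adjusted p = 0.248). Hist3h2ba stood at 2.8, 2.6, 6.4 and 7.2 with Dox and at 1.8, 7.1, 10.5 and 16.2 without (-0.61 ± 0.36, adjusted p = 0.345). Hist3h2a, Hist4h4, Hist2h2be and Hist1h2af had differences of -0.12 to 0.37, with adjusted p of 0.424 to 0.998.

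**Figure D4:**
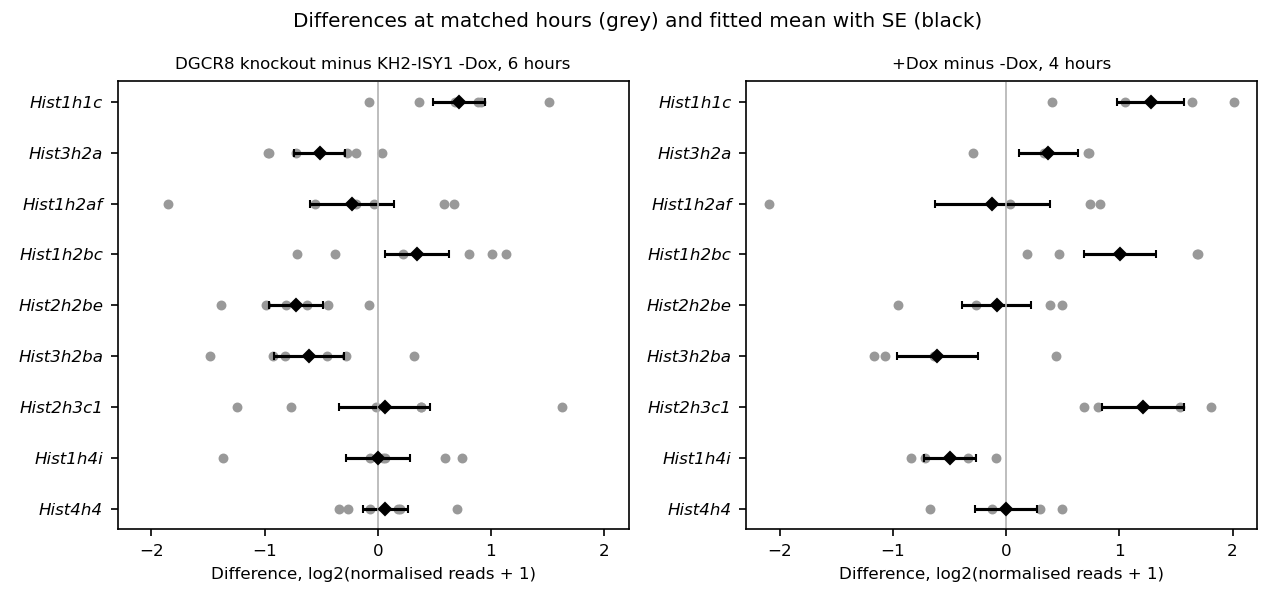
Difference in log2(normalised reads + 1) at each matched hour (grey points) with the fitted mean and its SE (black), for the knockout over 6 hours and for Dox over 4 hours, in 9 histone genes. Hist2h2be lies below 0 at all 6 hours of the knockout, and Hist1h1c, Hist1h2bc and Hist2h3c1 lie above 0 at all 4 hours of Dox. The 24 h point of Hist2h3c1 with Dox rests on a value of 0 without Dox, so its direction is uncertain.

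Over all genes 1.05% were lower and 1.78% higher with Dox. Slbp was the 1 of 12 genes of histone 3′ end processing called with Dox, at 351, 306, 288 and 232 normalised reads against 443, 405, 549 and 440 without (-0.65 ± 0.13, adjusted p = 0.0494). The call was lost without 48, 72 or 96 h (adjusted p = 0.142, 0.290 and 0.102), without the hour block (0.425), without the intensity trend (0.138) and without the filter on low values (0.0532). With edgeR on the recovered reads of 24 and 48 h its difference was -0.39 (adjusted p = 0.194). Of 21 DNA replication genes 2 were lower and none higher, Pcna, the sliding clamp (-0.46 ± 0.07, adjusted p = 0.0350), and Rpa2, a single-strand binding subunit (-0.38 ± 0.07, adjusted p = 0.0420). Of 9 chaperones 1 was lower, Chaf1b, a subunit of the assembly factor CAF-1 (-0.52 ± 0.08, adjusted p = 0.0371), and of 11 replication-independent histones 1 was lower, H1fx (-0.94 ± 0.18, adjusted p = 0.0465). Pcna, Chaf1b and H1fx each lost the call in 3 of 4 leave-outs and Rpa2 in all 4, and all of these were lost without the intensity trend (adjusted p = 0.114 to 0.138). In the whole table no gene was called without 48 h, without 72 h, without the hour block or without the intensity trend. Without 96 h 66 of 16101 genes were called. Losses under those settings are therefore not particular to the genes named here. No gene of histone gene transcription, mRNA decay or cell cycle inhibition was called (0 of 9, 0 of 6 and 0 of 10). Of the marker lists 5 of 10 naive markers were higher, 3 of 8 formative markers were lower, and 0 of 3 general pluripotency and 0 of 3 fibroblast markers were called.

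The 4 cESC libraries had no replicate and were described beside the 0 h library of the 2i/LIF cells. Hist3h2ba, which rose late in EpiLC medium, stood at 3.3 and 1.8 normalised reads in the cESC libraries from 24 and 48 h without Dox and at 0.9 and 1.8 in those from 24 and 48 h with Dox, beside 0.9 at 0 h, which are 1 to 4 reads each. Hist1h4i stood at 5.8, 4.5, 7.9 and 5.4 in the same order, beside 5.2 at 0 h. Cells in EpiLC medium stood at 30.0 and 13.3 at 24 and 48 h without Dox and at 17.8 and 7.0 with Dox, so the 48 h library with Dox lay within the cESC range. Hist4h4 stood at 19.2, 28.2, 16.7 and 18.0, with 14.8 at 0 h, and the highest of these had an exact 95% Poisson interval of 19.1 to 40.0, which overlapped that of 0 h (8.61 to 23.7).

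Hist1h1c stood at 20.8 and 17.3 in the cESC libraries without Dox and at 12.3 and 10.8 with Dox, beside 11.3 at 0 h. Relative to 0 h, on the log2(value + 1) scale with a pair mean of at least 1, no member was 2-fold lower in the cESC libraries without Dox from 24 h (18.9% of all genes) or 48 h (10.8%). From 24 h 2 of 9 were 2-fold higher, Hist1h2af and Hist3h2ba (5.47% of all genes), and from 48 h 1 of 9, Hist1h2af (2.9%). Hist1h2af stood at 0 at 0 h, which allows up to 2.61 normalised reads. Passing the pair mean therefore already made it 2-fold higher, so its count carries no further information. In both cESC libraries with Dox it stood at 1.8 and did not pass that mean. With Dox, Hist2h3c1 was lower among 7 members from 24 h and none was higher (9.9% and 2.34% of all genes). From 48 h with Dox, Hist3h2a was lower and Hist2h2be higher among 8 members (12.1% and 4.92%). These genes, named after their values were seen, and all other members held 1 to 31 reads in each cESC library.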

How the data were processed

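PolyA RNA-seq was measured in 32 libraries. Per the labels' protocols, RNA was extracted with Trizol and 3 ug of total RNA went into a TruSeq stranded kit. The submitters' processing notes name Bowtie, GRCm38 and mm9 without roles. The counter, its use of strand and its treatment of reads that match several copies are not given in the sources used here. The deposited values are a signal: gene reads that the authors divided by 1 size factor per library, as read from the steps between low values. Whole reads were recovered for 24 libraries (at least 94.4% of low values within 0.1 reads of a whole number). The EpiLC table's 1 line without a gene name was left out.

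Values were tested as log2(value + 1) with limma 3.58.1 (intensity trend, R 4.3.3), for genes with a mean of at least 1. The EpiLC and EB courses were splines of the square root of time with 3 and 2 degrees of freedom. Knockout and Dox were paired by hour. All tests were two-sided with Benjamini-Hochberg adjustment over all genes, and the threshold was 0.05. Named by plan were the 8 highest members per table, up to 10 called members per fit and the extremes per histone class among those called. Further members were also named, some of them after their values were seen. From 11 gene lists the called genes of largest change were named. Members and lists were chosen with earlier results of these data known. Alternatives were a pseudocount of 4, no filter, other scalings, no trend, another spline, no hour block and leave-one-out, and, chosen after seeing the data, edgeR 4.0.16 on recovered reads and EB levels by median and without day 13. Intervals for values are exact Poisson limits at 95% and cover counting error alone. The scripts were tested on simulated data with changes planted only in genes above the level of most members, so recovery of changes at lower levels was not tested. The other 2 tables were not used here.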

Additional observations from a re-analysis of the deposited data

Results flagged for a closer look

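The 3 members that stood higher with Dox at all 4 hours of the EpiLC course stood lower with Dox in serum/LIF, and the difference between the media was not tested, since the serum/LIF pair has 1 library a side and sits in another table. On the log2(value + 1) scale, the change with Dox in serum/LIF was -1.55 for Hist1h1c, -2.61 for Hist2h3c1 and -0.64 for Hist1h2bc. In EpiLC medium the changes were 1.28, 1.21 and 1.01 in that order, and none was called (limma, adjusted p = 0.0643, 0.107 and 0.121). The 3 genes were picked for this opposition, and the share of all genes that met the same rule was not counted. At 24 h in EpiLC medium Hist2h3c1 stood at 0 without Dox, which allows up to 2.73 normalised reads, and at 1.9 with Dox. Its direction at that hour is therefore uncertain. The serum/LIF library without Dox also exceeded EB day 1 by 0.29 for Hist1h1c and by 2.43 for Hist2h3c1, whereas Hist1h2bc differed by 0.03 in the other direction.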

How the results depend on the processing

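No called histone gene and no named example of the lists changed sign under the alternatives run, but members that were not called did. In the EpiLC course Hist3h2a was 0.0039 with a spline of 2 degrees of freedom and ranged from -0.87 to 0.34 over the leave-outs. In the knockout a pseudocount of 4 gave -0.016 for Hist1h4i and -0.0053 for Hist2h3c1. Over the knockout leave-outs Hist4h4 ranged from -0.058 to 0.15, Hist1h4i from -0.15 to 0.28, Hist2h3c1 from -0.25 to 0.32 and Hist1h2af from -0.41 to 0.097. With Dox, Hist4h4 was 0.0034 with median-ratio and 0.012 with TMM-like scaling, and Hist3h2a was -0.053 with edgeR on the reads of 24 and 48 h. Over the Dox leave-outs Hist4h4 ranged from -0.16 to 0.22, Hist2h2be from -0.28 to 0.20 and Hist1h2af from -0.44 to 0.54. Over the EB leave-outs Hist1h1a ranged from -0.23 to 2.14, Hist1h4d from -0.63 to 0.72, Hist2h2be from -0.90 to 0.73 and Hist1h1c from -1.24 to 0.47, the last called without day 0. The number of members called in the EpiLC course (4) ranged from 1 to 4 over the leave-outs, was 1 without 12, 72 or 96 h and 2 without 18 or 30 h. It was 1 with edgeR on reads recovered up to 72 h, an alternative chosen after seeing the data. In the knockout (2 members) it was 1 with median-ratio and with TMM-like scaling, 0 without the hour block, where calls over all genes went from 6899 to 3487, and 0 to 1 over the leave-outs. With Dox (0 members) it was 0 to 1 over the leave-outs, though without 48 or 72 h no gene at all was called. In the EB course (6 members) it ranged from 0 to 8 over the leave-outs and was 0 without day 10, 1 without day 2 and 2 without day 1 or day 13. For the change of the knockout difference with hour it was 0 under all alternatives run. The other 45 alternative counts stayed within 1.5 times the reported count or equal to it. The causes were not tested. Depth limits the low members: a count of 0 allows up to 3 reads, and from day 8 of the EB course no Hist1 H2A copy exceeded 7 reads. The labels give no replicate numbers that could pair libraries, so pairs were formed by hour alone.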
